A study of Mus musculus with 6 samples.

Results

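Superoxide dismutases, catalase and peroxiredoxins are the enzymes that dispose of superoxide and peroxides in mammalian cells. The genes were taken by name and matched to the tables by NCBI gene number: the superoxide dismutase genes Sod1, Sod2 and Sod3, the catalase gene Cat, and the peroxiredoxin genes Prdx1 to Prdx6. They make up 10 of the 17254 genes that had a count in any library. All 10 had a mean FPKM of at least 1, the level required for testing, and so were among the 11717 genes tested. FPKM is a read level scaled by transcript length and by library total, which allows levels of different genes to be set side by side.

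RNA-seq was carried out on cultured mouse neural stem/progenitor cells (NSPCs) to ask how a changed redox state acts on their gene expression. The cells were kept for 48 h without an added agent (control), with 5 µM paraquat (PQ), a herbicide that passes electrons to oxygen and so makes superoxide, or with 5 mM N-acetylcysteine (NAC), a cysteine donor used as an antioxidant. Each group had 2 libraries, called library 1 and library 2 here in the order of the records, a number that names a library and pairs nothing. Totals were 9849392 and 10040827 expected counts in control, 10388731 and 9680436 in PQ, and 10698241 and 9907726 in NAC.

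All 3 groups were grown in N2 medium with EGF and bFGF. The methods describe an immortalized Ink/Arf-/- culture of neonatal origin that holds a mixed population, so the control cells carry the same deletion as the treated cells. The labels give a genotype, spelled Ink/Ark knockout, and the strain C57BL/6 only for library 1 of control and library 1 of PQ. Those 2 libraries are also the only ones labelled with an Illumina protocol, and the other 4 are labelled BGISEQ-500. The methods, by contrast, describe only an Illumina preparation, with a stranded kit, and the labels were followed here. By the labels NAC has no Illumina library, and ratios among the BGISEQ-500 libraries are given beside some of the results. The study states that its RNA-seq was repeated with success, but neither that statement nor the labels say that the libraries of a group came from separate cultures, so p-values measure only the spread between these libraries, which may be technical. Library 1 and library 2 of a group had a Pearson r across genes of 0.988 in control, 0.990 in PQ and 0.991 in NAC on log2(FPKM + 1), a description in which genes are not independent replicates.

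Cdkn2a, the gene at the deleted Ink/Arf locus, had 137 and 162 expected counts in control, 130 and 131 in NAC, and 120 and 130 in PQ. Reads were thus present in every library, and edgeR called no change of Cdkn2a in any comparison. Which bases were deleted is not given in the sources used here, and reads from outside the deleted stretch check nothing. Of 12 progenitor markers, 11 had a mean FPKM of at least 1, with Vim the most abundant at 2073 FPKM. Their summed FPKM was 3413 and 3497 in control, 3782 and 3834 in PQ, and 2684 and 2609 in NAC. Vim made most of each of these sums. Of 6 astrocyte markers, all 6 reached that level, led by Slc1a3 at 98.9 FPKM, and the sums were 114 and 100.5 in control, 82.6 and 84.4 in PQ, and 141 and 141 in NAC. Slc1a3 made most of each of these sums too. Aldh1l1 went the other way with PQ, with 1.11 and 1.34 FPKM in control, 3.28 and 2.36 in PQ, and 1.11 and 0.68 in NAC, and both PQ libraries also lay above control in FPKM for Slc1a2 and S100b. Of 5 oligodendrocyte progenitor markers, 3 reached it, led by Olig1 at 429 FPKM, while Sox10 had at most 3 counts in every library; the sums ran from 651 in control library 1 to 924 in NAC library 2. Among 5 oligodendrocyte markers, 2 reached it, led by Cnp at 61.5 FPKM, Mog and Mag had at most 3 counts, and the sums ran from 56.0 to 67.2. Of 6 neuron markers only Map2 reached it, at 43.2 FPKM, Rbfox3 and Stmn2 had at most 3 counts, and the sums were 38.3 and 36.1 in control, 33.8 and 34.8 in PQ, and 65.4 and 58.9 in NAC. Map2 made nearly all of that sum, and Tubb3 went the other way with NAC but not with PQ, with 2.38 and 1.30 FPKM in control, 0.72 and 0.47 in PQ, and 0.32 and 0.44 in NAC, too low on average to be tested. Microglia, endothelial, fibroblast and red cell lists had no gene with a mean FPKM of 1. Their sums ran from 0.55 to 1.24 FPKM (6 genes, led by Cx3cr1), 0.16 to 0.58 (4 genes, Pecam1), 0.51 to 2.24 (5 genes, Dcn) and 0 to 0.46 (3 genes, Hba-a1), with Aif1, Ptprc, Csf1r, Tmem119, Cldn5, Cdh5, Kdr, Pdgfrb, Lum and all 3 red cell genes at no more than 3 counts. These are bulk libraries, in which fewer cells of a type and less RNA per cell cannot be told apart, and the part of the marker shifts in the values that follow was not tested.

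Superoxide formed by respiration, oxidases or a redox-cycling compound is turned by superoxide dismutases into hydrogen peroxide and oxygen. Catalase then splits hydrogen peroxide in peroxisomes, and peroxiredoxins reduce peroxides with a reactive cysteine that thioredoxin returns to its reduced form. Neural progenitors are known to respond to their redox state in both division and choice of fate.

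In control, FPKM levels per length ran from Prdx2, with a group mean of 293 ± 17.7 (SD, n = 2), down to Sod3, with 5.86 ± 0.410. Both control libraries of Prdx2 lay above those of Prdx1, which followed at 266, and Sod1 came next at 261, with libraries that overlapped those of Prdx1. Prdx5 at 155, Prdx4 at 102, Cat at 46.0, Prdx3 at 42.9, Prdx6 at 32.9 and Sod2 at 21.3 FPKM came after them, each with both control libraries below both of the gene before it. Among all 17254 genes, Prdx2 stood at place 202 by control FPKM, Prdx1 at 225 and Sod1 at 229, while Sod3 stood at place 8434. Prdx2, Prdx1 and Sod1, all of cytosolic enzymes, were thus among the more abundant transcripts, and that of the secreted dismutase was far down the range. Prdx6 stood at place 2611.

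The order was almost kept in the treated groups. With PQ, Prdx1 and Prdx2 shared the top with means of 331 and 331 FPKM and overlapping libraries, and the genes after them stood in the same order as in control with no overlap of neighbours. With NAC the order was that of control, and no neighbours overlapped. Together the 10 genes held 0.277 and 0.285% of total FPKM in control, 0.302 and 0.303% in PQ, and 0.296 and 0.299% in NAC. Both treated groups thus lay above control in this share, and PQ lay above NAC.

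**Figure D1:**
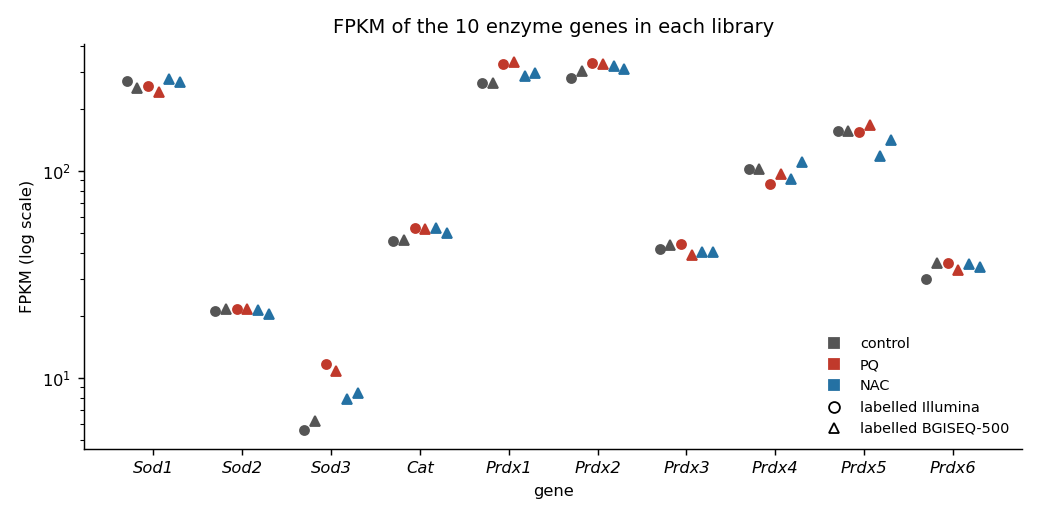
FPKM of each of the 10 genes (log scale) in the 6 libraries, with colour for the group and shape for the labelled platform. Points of a gene lie close together for most genes, while Sod3 runs from 5.57 in a control library to 11.7 in a PQ library.

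Promoter bases of the enzyme genes were taken from RefSeq. Of the 10 genes, 8 matched the RefSeq promoter table by symbol, and Sod3 and Prdx6 did not. In the 250 bases before each start, both strands were searched for the core of the antioxidant response element, TGACNNNGC, which NRF2 binds with a small MAF partner, for the AP-1 site TGANTCA, and for the FOXO site TGTTTAC. The first was found in 10.2% of 32851 promoters, the second in 6.75% and the last in 3.17%. Of the 8 genes, Sod1 and Prdx1 held the first, Prdx1 also held the second, and 0 held the last, which says only that those letters are not in these windows. The sequences of both are shown because these are the matches among the enzymes. That of Prdx1 (GRCm38.p6, chr4:116685349-116685598, plus strand) is the whole window, with 2 matches to the AP-1 site in capitals, at 237 to 231 and 131 to 125 bases before the start. The latter lies inside a match to the antioxidant response element core read on the opposite strand, at 133 to 125 bases, and the capitals there cover both. That of Sod1 (chr16:90220681-90220739, plus strand) has in capitals a match to the core on the opposite strand, at 56 to 48 bases. Each match is a description of the letters and not evidence of binding.
Prdx1: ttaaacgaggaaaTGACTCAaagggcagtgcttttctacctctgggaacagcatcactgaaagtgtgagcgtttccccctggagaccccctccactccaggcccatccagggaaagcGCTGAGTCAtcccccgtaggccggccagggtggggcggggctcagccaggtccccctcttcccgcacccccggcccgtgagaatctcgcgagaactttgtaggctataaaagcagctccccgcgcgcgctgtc
Sod1: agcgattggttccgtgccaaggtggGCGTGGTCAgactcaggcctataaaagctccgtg

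Of the superoxide dismutases, Sod1 makes the copper and zinc enzyme of the cytosol. It had 271 and 252 FPKM in control, 258 and 240 in PQ, and 278 and 268 in NAC. The PQ values overlapped those of control, and the NAC values did too. Sod1 supplied 91.0 and 90.1% of the summed FPKM of the family in control, 88.6 and 88.1% in PQ, and 90.5 and 90.3% in NAC. Its log2 fold change was -0.097 ± 0.094 (SE) for PQ against control and 0.017 for NAC against control, with edgeR adjusted p of 0.52 and 0.93.

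Sod2 makes the manganese enzyme of the mitochondrial matrix. Its level was the steadiest of the family across libraries, at 21.1 and 21.5 FPKM in control, 21.6 and 21.5 in PQ, and 21.2 and 20.4 in NAC. Its log2 fold changes of -0.013 ± 0.095 for PQ against control and -0.082 for NAC against control were smaller than their errors, with edgeR adjusted p of 0.95 and 0.61. It was the only enzyme gene here with fractional expected counts, which it had in all 6 libraries. Since such counts arise where reads are divided between genes, its values are less certain.

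Sod3 (NCBI gene 20657) makes the secreted dismutase that binds the extracellular matrix, and it was the dismutase gene that moved. Its level was 5.57 and 6.15 FPKM in control, 11.7 and 10.8 in PQ, and 7.88 and 8.46 in NAC, from 112 and 126, 247 and 213, and 172 and 171 expected counts. Both PQ libraries were above both NAC libraries, which were above both control libraries, with no overlap. Within a group the widest gap was that of control, a log2 ratio of -0.13 between its libraries, which was small beside the steps between groups.

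With PQ, Sod3 rose 1.88-fold over control, a log2 fold change of 0.91 ± 0.15 (edgeR adjusted p = 0.00034). The log2 ratio was 1.02 between the Illumina libraries and 0.81 between the BGISEQ-500 libraries. The call held under all 7 other settings and with each of the 6 libraries left out, over log2 fold changes from 0.83 to 0.98. PQ also gave more Sod3 RNA than NAC, by 1.39-fold (log2 0.48 ± 0.14, edgeR adjusted p = 0.015). That difference missed the threshold without PQ library 1 (0.44, edgeR adjusted p = 0.11), NAC library 1 (0.43, 0.11) or NAC library 2 (0.52, 0.051), and with DESeq2 (0.48, 0.059). Its adjusted p ran from 0.0088 to 0.11 over all alternatives. Between PQ library 2 and each NAC library, all BGISEQ-500, the log2 ratio was 0.48 and 0.39.

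NAC against control stood on the threshold for Sod3. The log2 fold change was 0.43 ± 0.15 (1.35-fold), with an edgeR adjusted p of 0.057. limma passed it on log2(FPKM + 1) at 0.42 (adjusted p = 0.028) and on log2(FPKM + 0.1) at 0.47 (adjusted p = 0.023), and DESeq2 did not (0.43, adjusted p = 0.17). edgeR gave an adjusted p of 0.13 with the labelled platform in the model and 0.08 with only the 4 libraries compared. In all, 2 of the 7 other settings called it, and with each library left out 0 of 6 did, with edgeR adjusted p from 0.077 to 0.22. Each NAC library exceeded the BGISEQ-500 control library, by a log2 ratio of 0.33 and 0.41. As a share of the family's summed FPKM, Sod3 went from 1.87 and 2.2% in control to 4.0 and 3.97% in PQ and 2.57 and 2.85% in NAC. The sum itself was 298 and 279 FPKM in control, 291 and 272 in PQ, and 307 and 297 in NAC. Sod3 thus moved within a family total that overlapped control in both treated groups and was nearly all Sod1.

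Cat encodes catalase, the heme enzyme of peroxisomes. It had 45.9 and 46.1 FPKM in control, 52.8 and 52.3 in PQ, and 52.9 and 49.9 in NAC. Both treated groups lay above control in every library, and they overlapped each other. The steps were small: log2 0.16 ± 0.093 for PQ (edgeR adjusted p = 0.25) and 0.11 for NAC (edgeR adjusted p = 0.45), neither past the threshold. The PQ to control log2 ratio was 0.15 between the Illumina libraries and 0.18 between the BGISEQ-500 libraries, and NAC exceeded the BGISEQ-500 control by 0.17 and 0.067.

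**Figure D2:**
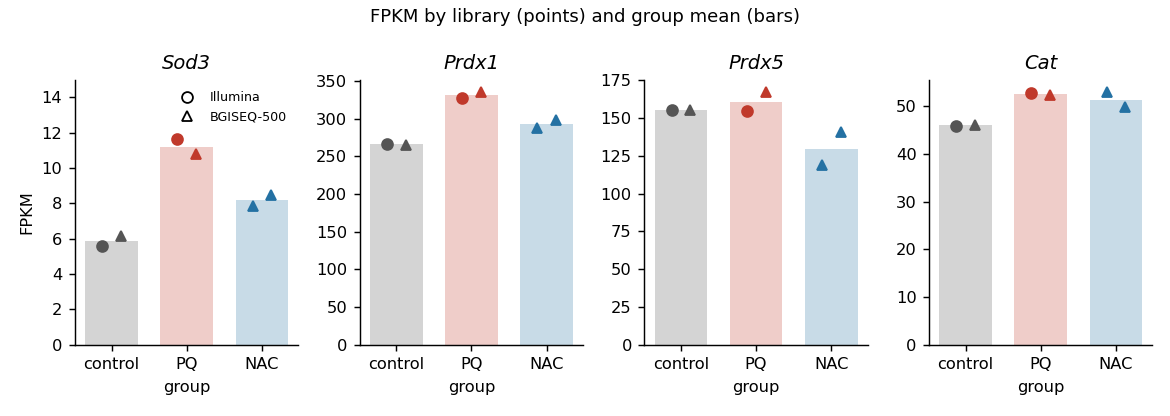
FPKM of Sod3, Prdx1, Prdx5 and Cat in each library (points, shape for the labelled platform) with the group mean (bars). Sod3 and Prdx1 are highest in PQ, Prdx5 is lowest in NAC, and Cat is above control in both treated groups, at 52.8 and 52.3 FPKM in PQ.

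Prdx1 and Prdx2 make the main peroxiredoxins of the cytosol, which work as pairs of subunits and pass their oxidation on to thioredoxin. Prdx1 had 266 and 266 FPKM in control, 327 and 335 in PQ, and 288 and 298 in NAC, from 3672 and 3740, 4766 and 4546, and 4322 and 4141 expected counts. Its control libraries were almost equal, both NAC libraries lay above them, and both PQ libraries lay above NAC. With PQ, Prdx1 rose 1.22-fold over control (log2 0.29 ± 0.087, edgeR adjusted p = 0.024). The log2 ratio was 0.25 between the Illumina libraries and 0.33 between the BGISEQ-500 libraries.

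The Prdx1 call held under all 7 other settings, with log2 fold changes from 0.29 to 0.32 and adjusted p from 0.011 to 0.048. It was lost when PQ or control was left with a lone library, although the size hardly moved. The edgeR adjusted p was 0.063 without control library 1 (log2 0.30), 0.069 without control library 2 (0.28), 0.1 without PQ library 1 (0.32) and 0.16 without PQ library 2 (0.26). NAC gave Prdx1 a log2 fold change of 0.095 over control (edgeR adjusted p = 0.5), and PQ against NAC came to 0.20 ± 0.086 (edgeR adjusted p = 0.095). Whether the PQ and NAC responses of Prdx1 differed is what that last comparison tested, and it did not pass.

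Prdx2 had 280 and 305 FPKM in control, 331 and 330 in PQ, and 321 and 312 in NAC. Every treated library was above both control libraries in FPKM, though the control libraries were themselves apart by more than the PQ libraries, and in normalized counts the NAC libraries overlapped them. The log2 fold change was 0.15 ± 0.09 for PQ and 0.069 for NAC, with edgeR adjusted p of 0.27 and 0.65. Prdx1 made up 30.4 and 29.2% of the summed peroxiredoxin FPKM in control, 33.4 and 33.4% in PQ, and 32.2 and 31.8% in NAC, and Prdx2 between 32.0 and 35.9% in every library. That sum was 875 and 908 FPKM in control, 979 and 1001 in PQ, and 896 and 936 in NAC, so PQ lay above the other groups, which overlapped.

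Prdx3, a mitochondrial peroxiredoxin, was close to level. It had 41.7 and 44.1 FPKM in control, 44.1 and 39.4 in PQ, and 40.7 and 40.8 in NAC. The PQ libraries lay on either side of control, with a log2 fold change of -0.064 ± 0.1 (edgeR adjusted p = 0.72), and NAC gave -0.12 (edgeR adjusted p = 0.46). Like Sod2, whose product shares its compartment, Prdx3 was therefore without a call in either treatment.

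Prdx4 makes the peroxiredoxin of the endoplasmic reticulum, where it passes oxidation on to protein disulfide isomerases. Its FPKM was 102 and 102 in control, 86.9 and 96.7 in PQ, and 91.8 and 110.2 in NAC. Both PQ libraries were below both control libraries, and the NAC libraries lay on either side of them. PQ against control gave log2 -0.18 ± 0.11 (edgeR adjusted p = 0.28), with -0.28 between the Illumina libraries and -0.084 between the BGISEQ-500 libraries. NAC against control gave -0.061 (edgeR adjusted p = 0.75). The libraries of a group differed by more here than for most of the other enzymes, by a log2 ratio of -0.18 in PQ and -0.25 in NAC.

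Prdx5 makes an atypical peroxiredoxin found in mitochondria, peroxisomes and cytosol, and it was the only enzyme gene that edgeR called lower with NAC. Its level was 155 and 155 FPKM in control, 155 and 167 in PQ, and 119 and 140.45 in NAC, from 1014 and 1033, 1064 and 1070, and 840 and 921 expected counts. Both NAC libraries lay below every control and PQ library, and the NAC libraries were also apart from each other, by a log2 ratio of -0.23. NAC lowered Prdx5 by 1.24-fold against control (log2 -0.31 ± 0.1, edgeR adjusted p = 0.043). PQ against control gave log2 0.023 (edgeR adjusted p = 0.91). PQ exceeded NAC 1.26-fold (log2 0.33 ± 0.1, edgeR adjusted p = 0.019).

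The Prdx5 call for NAC was fragile and rested most on NAC library 1. Without that library the log2 fold change was -0.20 (edgeR adjusted p = 0.35), and without NAC library 2 it was -0.43 (edgeR adjusted p = 0.032). The edgeR adjusted p was 0.088 without control library 1 (log2 -0.30), 0.064 without control library 2 (-0.32), 0.059 without PQ library 1 (-0.31) and 0.06 without PQ library 2 (-0.31). Of the 7 other settings, 2 called it. It was lost with DESeq2 (adjusted p = 0.067). limma lost it on log2(FPKM + 1) at -0.27 (adjusted p = 0.1) and on log2(FPKM + 0.1) at -0.27 (adjusted p = 0.1). edgeR lost it with the labelled platform in the model (adjusted p = 0.072) and with only the 4 libraries compared (0.063). The direction was the same in each of these. Against the BGISEQ-500 control alone, the NAC libraries stood at log2 -0.42 and -0.19. PQ against NAC lost its call without PQ library 2 (log2 0.26, edgeR adjusted p = 0.18) or without NAC library 1 (0.22, edgeR adjusted p = 0.23), and held under the 7 other settings, with adjusted p from 0.0087 to 0.042.

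Prdx5 also shares 409 bases with a neighbour, Trmt112, an activator of methyltransferases that lies on the opposite strand and is given here because of that overlap. Trmt112 had 61.1 and 63.1 FPKM in control, 57.4 and 59.8 in PQ, and 55.2 and 50.9 in NAC. Both NAC libraries were the lowest, with a log2 fold change of -0.27 (edgeR adjusted p = 0.074). The methods name a stranded kit, which the labels of the BGISEQ-500 libraries do not, and whether counting used strand is not given in the sources used here. Reads in the shared stretch may therefore not have been told apart, and both genes are uncertain to that extent. Prdx1 shares 424 bases with the long noncoding RNA AV051173, which had at most 1 count in any library. The other 8 genes overlap no annotated gene in GRCm38.p6.

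Prdx6 makes the peroxiredoxin with a lone active cysteine, which draws on glutathione and also has phospholipase activity. Its FPKM was 29.9 and 35.8 in control, 35.8 and 33.3 in PQ, and 35.3 and 34.4 in NAC. The control libraries were the farthest apart of any group and held nearly all treated values between them. The log2 fold change was 0.046 ± 0.1 for PQ and 0.04 for NAC, with edgeR adjusted p of 0.81 and 0.83. Within a labelled platform the direction turned. PQ to control was 0.21 between the Illumina libraries and -0.11 between the BGISEQ-500 libraries. Both NAC libraries lay below the BGISEQ-500 control, at log2 -0.05 and -0.10.

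**Figure D3:**
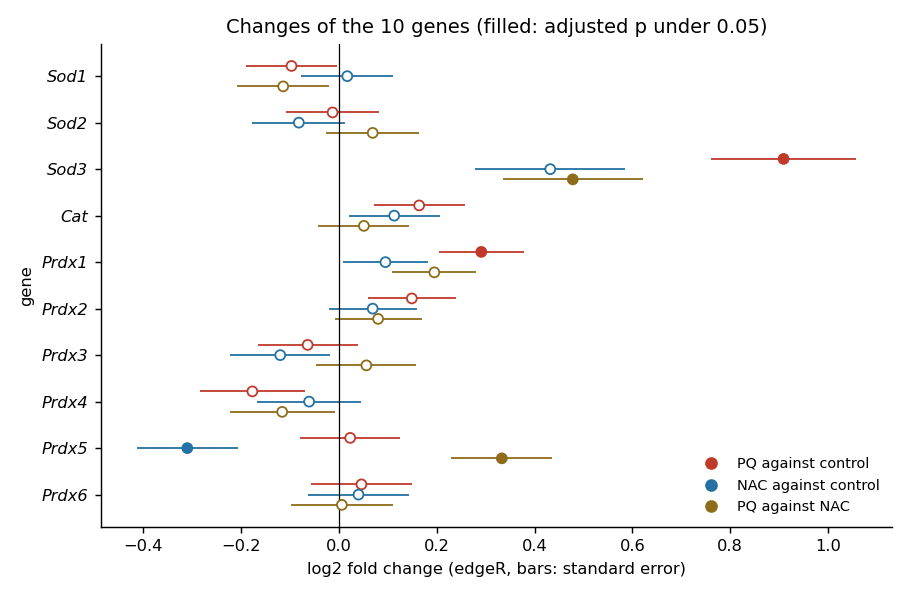
Log2 fold change of each of the 10 genes from edgeR (points, filled where the adjusted p is under 0.05) with its standard error (bars), for PQ against control, NAC against control and PQ against NAC. Sod3 at 0.91 and Prdx1 at 0.29 are filled for PQ, and Prdx5 at -0.31 is filled for NAC.

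For PQ against control, edgeR called 2 of the 10 enzyme genes, beside 19.2% of all genes tested. Both calls were higher, Sod3 and Prdx1, beside 9.76% of all genes higher and 9.45% lower. Lower calls numbered 0 with edgeR, with 0 also at an unadjusted p under 0.05 and 0 with DESeq2 and limma. The share of the enzymes called was therefore close to that of all genes. In normalized counts, both libraries of one group lay outside both of the other for 5 of the 10, beside 57.9% of all genes. These were Sod3, Cat, Prdx1 and Prdx2, higher with PQ, and Prdx4, lower. The 8 genes without a call ran from -0.18 for Prdx4 to 0.16 for Cat, and the median of the 10 was 0.035, beside -0.001 for all genes.

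For NAC against control, which uses the same control libraries, edgeR called 1 of the 10, beside 18.7% of all genes. It was Prdx5, lower, beside 9.64% of all genes lower and 9.01% higher. Higher calls numbered 0 with edgeR, 1 at an unadjusted p under 0.05 (Sod3), 0 with DESeq2 and 1 with limma. In normalized counts the groups lay apart for 6 of the 10, beside 56.6% of all genes: Sod3, Cat and Prdx1 higher with NAC, and Sod2, Prdx3 and Prdx5 lower. The FPKM of Sod2 overlapped between these groups. The median was 0.028, beside -0.002 for all genes, so the enzymes as a set stood near the centre of the table here too.

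For PQ against NAC, edgeR called 2 of the 10, beside 31.6% of all genes. These were Sod3 and Prdx5, both higher with PQ, beside 16.0% of all genes higher and 15.7% lower. Lower calls numbered 0 with edgeR, DESeq2 and limma, also at an unadjusted p under 0.05. In normalized counts the groups lay apart for 6 of the 10, beside 66.5% of all genes, with Sod2, Sod3, Prdx1, Prdx2 and Prdx5 higher with PQ and Sod1 lower. The median was 0.062, beside 0 for all genes. As for the other contrasts, whether the enzymes differ from the table as a set was not tested.

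Side by side, log2 fold changes for PQ and NAC against the shared control were 0.91 and 0.43 for Sod3, 0.29 and 0.095 for Prdx1, 0.16 and 0.11 for Cat, and 0.15 and 0.069 for Prdx2. They were 0.023 and -0.31 for Prdx5, and -0.18 and -0.061 for Prdx4. Because the control libraries enter both, a high or low control value moves both numbers of a pair together.

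By likeness of log2 normalized counts over the 6 libraries, Sod3 was closest to Polr1e (Pearson r = 0.996), a subunit of RNA polymerase I, with Kctd10 and Tnfsf9 next. Prdx1 was closest to Tmem171 (0.995), followed by Liph and Inhba, and Prdx5 to Itm2a (0.995), followed by Tspo and Yrdc. These are the highest of 11716 genes by choice, over libraries that fall into 3 groups, and describe no more than the pattern. For Inhba, which encodes an activin subunit, the PQ log2 fold change was 1.46 (edgeR adjusted p = 0.00038), so a like pattern did not mean a like size.

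Oxidized peroxiredoxins are recycled by thioredoxin and its reductase, and those oxidized further are repaired by sulfiredoxin. Srxn1, the sulfiredoxin gene, had 15.8 and 20.1 FPKM in control, 30.3 and 30.5 in PQ, and 12.7 and 14.2 in NAC. All PQ libraries were above control and all NAC libraries below it. Srxn1 rose with PQ by log2 0.73 ± 0.12 (edgeR adjusted p = 0.00022), and that call held under the 7 other settings and 6 omissions. With NAC it fell, by log2 -0.46 ± 0.12 (edgeR adjusted p = 0.01), a call lost without control library 2 (-0.29, edgeR adjusted p = 0.13) or NAC library 1 (-0.39, edgeR adjusted p = 0.12) and with limma. Txnrd1, the cytosolic thioredoxin reductase gene, had 57.4 and 59.2 FPKM in control, 78.0 and 73.9 in PQ, and 57.9 and 54.7 in NAC. It rose with PQ by log2 0.36 ± 0.091 (edgeR adjusted p = 0.0099), with the call lost without PQ library 1 (0.33, edgeR adjusted p = 0.12). NAC gave -0.093 (edgeR adjusted p = 0.53), and PQ against NAC gave 0.45 ± 0.091 (edgeR adjusted p = 0.00092).

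The promoters of this recycling pair are shown because both genes act on peroxiredoxins and rose with PQ as Prdx1 did. That of Srxn1 (GRCm38.p6, chr2:152105397-152105510, plus strand, from RefSeq) has 2 matches to the AP-1 site in capitals, at 102 to 96 and 45 to 39 bases before the start. That of Txnrd1 (chr10:82859089-82859147, plus strand, from RefSeq), at the second of its 3 listed starts and inside the gene, has in capitals a match to the antioxidant response element core on the opposite strand, at 92 to 84 bases. As with Prdx1, a match of these lengths is found by letters alone.
Srxn1: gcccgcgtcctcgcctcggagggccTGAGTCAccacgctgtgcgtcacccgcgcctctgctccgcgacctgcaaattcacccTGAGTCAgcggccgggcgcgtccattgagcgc
Txnrd1: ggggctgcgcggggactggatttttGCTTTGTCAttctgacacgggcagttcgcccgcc

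Txn1, the cytosolic thioredoxin that reduces Prdx1 and Prdx2, moved with the other agent. It had 157 and 156 FPKM in control, 164 and 166 in PQ, and 262 and 276 in NAC. NAC raised it by log2 0.74 ± 0.091 (edgeR adjusted p = 1.1e-05), whereas PQ gave 0.052 (edgeR adjusted p = 0.75). The thioredoxin inhibitor gene Txnip stood at 6.69 and 4.54 FPKM in control, 0.75 and 0.81 in PQ, and 6.99 and 7.66 in NAC, and fell with PQ by log2 -2.87 ± 0.24 (edgeR adjusted p = 5.1e-07). For the mitochondrial partners of Prdx3, Txn2 gave -0.039 with PQ and -0.25 with NAC, and Txnrd2 gave -0.46 and -0.088, with edgeR adjusted p of at least 0.1. Of the sestrins, stress-induced proteins linked to peroxiredoxin repair, Sesn2 fell with NAC by log2 -1.35 ± 0.16 (edgeR adjusted p = 7.9e-06). Its call with PQ (-0.50, edgeR adjusted p = 0.028) was lost without control library 1 (-0.21, 0.41), PQ library 1 (-0.58, 0.079) or PQ library 2 (-0.42, 0.16), and with DESeq2 (adjusted p = 0.056) or limma (0.12). Sesn1 and Sesn3 had no call against control. Of the 14 recycling genes tested, PQ gave 2 higher and 2 lower, beside 9.76% of all genes higher and 9.45% lower. Their median was -0.024. NAC gave 1 higher and 3 lower, beside 9.01% of all genes higher and 9.64% lower, with a median of -0.09. The remaining gene there was Txnrd3, named after its values were seen. Its call (-0.54, edgeR adjusted p = 0.049) was lost with any library left out, the adjusted p of edgeR reaching 0.23, and under 5 of the 7 other settings.

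Glutathione peroxidases share the peroxide substrate of catalase and peroxiredoxins. Gpx1, the abundant cytosolic form, had 90.4 and 90.9 FPKM in control, 125 and 114 in PQ, and 53.0 and 48.5 in NAC, on the scale where Cat stood near 46.0 in control. It rose with PQ by log2 0.38 ± 0.097 (edgeR adjusted p = 0.01), a call lost without PQ library 1 (0.32, edgeR adjusted p = 0.14), and fell with NAC by log2 -0.88 ± 0.1 (edgeR adjusted p = 5.1e-06). Gpx4, which reduces lipid peroxides, gave 0.004 and -0.15 with no call. Of the 9 genes of this list tested, PQ gave 1 higher and 0 lower (median 0.071), beside 9.76% of all genes higher and 9.45% lower. NAC gave 0 higher and 3 lower, Gpx1, Gclc and Gpx8 (median -0.24), beside 9.01% of all genes higher and 9.64% lower. The Gpx8 call (-0.38, edgeR adjusted p = 0.042) was lost without control library 1 (-0.19, 0.38), NAC library 1 (-0.40, 0.13) or NAC library 2 (-0.36, 0.18), and with DESeq2 (adjusted p = 0.085), limma (0.11) or the labelled platform as covariate in edgeR (0.13). The lower NAC calls numbered 2 to 3 and the higher PQ calls 0 to 1 with each library left out. Neither 0 changed with DESeq2, limma or an unadjusted p under 0.05 with edgeR.

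**Figure D4:**
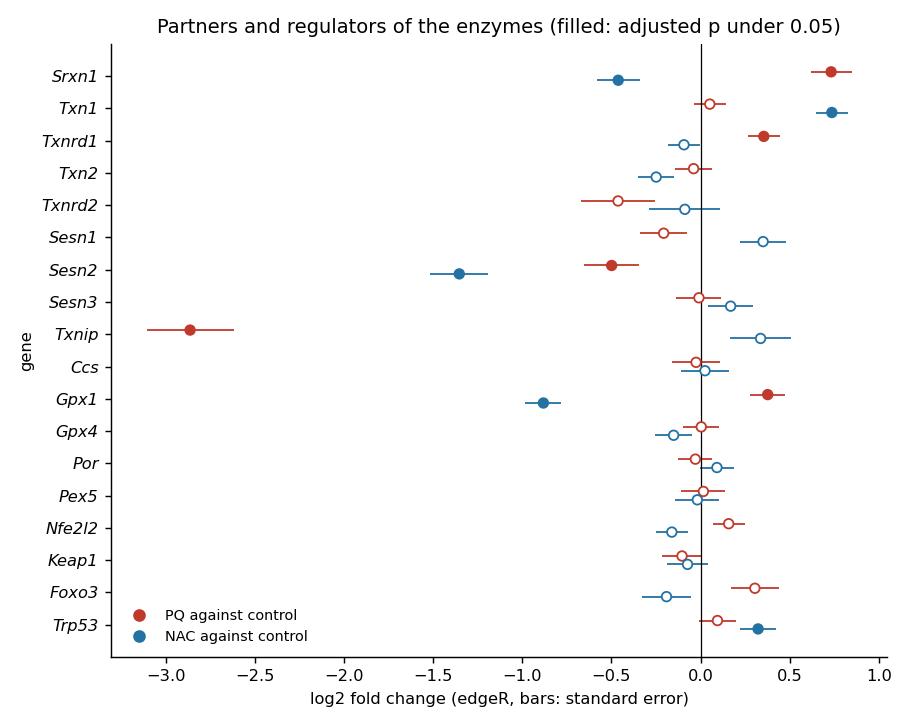
Log2 fold change from edgeR (points, filled where the adjusted p is under 0.05) with its standard error (bars) for partners and regulators of the enzymes, for PQ against control and NAC against control. Srxn1 and Gpx1 are filled on opposite sides for the 2 agents, Txn1 is filled for NAC, and Txnip lies at -2.87 for PQ.

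The copper chaperone gene Ccs, whose product loads copper into Sod1, gave log2 -0.025 with PQ and 0.025 with NAC, with edgeR adjusted p of 0.93 and 0.93. Calls by edgeR over all genes were 9.76% higher and 9.45% lower with PQ, and 9.01% higher and 9.64% lower with NAC. The 11-gene list for copper and manganese delivery, which holds Ccs, had a median of 0.19 with PQ and -0.094 with NAC. PQ gave 1 higher, Slc31a2, lost without control library 2 (0.57, edgeR adjusted p = 0.1) or PQ library 1 (0.61, edgeR adjusted p = 0.15), and with DESeq2 (adjusted p = 0.091). NAC gave 1 higher, Slc11a2, lost with 4 of the 6 libraries left out in turn, namely NAC library 2 (0.26, edgeR adjusted p = 0.33), control library 1 (0.24, 0.28), PQ library 1 (0.38, 0.061) and PQ library 2 (0.38, 0.059). DESeq2 (adjusted p = 0.11), limma (0.12), and edgeR with the labelled platform as covariate (0.18) or only the 4 libraries compared (0.059) did not call it either. It also gave 1 lower, the copper pump gene Atp7a at -0.68 ± 0.13 (edgeR adjusted p = 0.00076). Por, which encodes a reductase able to donate electrons to PQ, gave -0.029 and 0.092 with no call. Among the 8 sources of superoxide and peroxide tested, PQ gave 1 higher, Nos2 (0.63, edgeR adjusted p = 0.0094), a call lost without control library 1 (0.48, edgeR adjusted p = 0.052) or PQ library 2 (0.46, edgeR adjusted p = 0.13) and with limma. NAC gave 2 lower, Nos2 at -1.32 and Ero1a at -1.49 (edgeR adjusted p = 3.4e-05 and 9.5e-08), and the medians of the list were -0.012 and -0.016. The paper counts Nos2 among interferon-stimulated genes. The oxidase genes Cybb, Nox1, Nox4, Duox1, Duox2 and Xdh were too low on average to be tested. Xdh had 0.4 and 0.45 FPKM in control, 1.27 and 0.89 in PQ, and 0.28 and 0.2 in NAC. Without the filter on mean FPKM, edgeR gave 2 higher and 0 lower of 16 genes with PQ, and 0 higher and 2 lower with NAC.

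Catalase enters peroxisomes through the receptor Pex5, whose gene gave log2 0.016 with PQ and -0.018 with NAC. The 21 peroxisome genes tested had a median of 0.082 with PQ, beside -0.001 for all genes. With NAC, edgeR called 0 in either direction, beside 9.01% of all genes higher and 9.64% lower. DESeq2 and limma also gave 0, an unadjusted p under 0.05 with edgeR gave 1, and the median was 0.007. The small steps of Cat thus stood beside a peroxisome list that was near the centre of all genes. Of 8 endoplasmic reticulum partners of Prdx4, PQ gave 2 lower, beside 9.45% of all genes, with a median of -0.077. Pdia5 was lost without PQ library 1 (-0.67, edgeR adjusted p = 0.073), and Txndc12 without that library (-0.32, 0.19), PQ library 2 (-0.31, 0.16) or control library 1 (-0.21, 0.25), and with DESeq2, limma or the labelled platform as covariate. NAC gave 1 lower, P4hb (-0.45, edgeR adjusted p = 0.0016), beside 9.64% of all genes, with a median of 0.078.

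Among regulators of the enzyme genes, Nfe2l2, which encodes NRF2, gave 0.16 with PQ and -0.16 with NAC, with edgeR adjusted p of 0.24 for each. PQ against NAC gave 0.32 ± 0.09 (edgeR adjusted p = 0.011), a call lost without PQ library 1 (0.33, 0.062), PQ library 2 (0.32, 0.067), NAC library 1 (0.32, 0.064) or NAC library 2 (0.32, 0.06), and with the labelled platform in the model (0.28, 0.071). Its inhibitor gene Keap1 gave -0.10 and -0.073 with no call. Foxo3, whose product is a known activator of Sod2 and Cat, gave 0.31 ± 0.13 with PQ (edgeR adjusted p = 0.12) and -0.19 with NAC (0.37). PQ against NAC gave 0.50 ± 0.13 (edgeR adjusted p = 0.0083), a call lost without NAC library 1 (0.38, 0.12). Bach1, a repressor at NRF2 sites, rose with each agent, by 0.42 with PQ and 0.42 with NAC (edgeR adjusted p = 0.011 for both). That call was lost without PQ library 1 in the former (0.11), and without NAC library 1 or 2 in the latter, where the adjusted p of edgeR reached 0.079. Trp53 gave 0.095 with PQ and 0.32 with NAC, called by edgeR (adjusted p = 0.034) but not without NAC library 1 (0.12), NAC library 2 (0.13), control library 1 (0.28) or either PQ library (0.053). Of 17 regulators tested, PQ gave 2 higher, Bach1 and Rela, and 1 lower, Ppargc1b (median 0.10). Among all genes, edgeR called 9.76% higher and 9.45% lower with PQ. NAC gave 5 regulators higher, Bach1, Trp53, Foxo4, Sirt1 and Nfkb1, the last named after its values were seen. It gave 2 lower, Hif1a and Ppargc1b (median 0.13), beside 9.01% of all genes higher and 9.64% lower. With each library left out, PQ gave 0 to 3 higher and 0 to 1 lower, and NAC gave 1 to 4 higher and 0 to 2 lower. By gene, edgeR calls held in 5 of 6 omissions for Bach1 with PQ and Foxo4 with NAC, in 4 for Rela and Ppargc1b with PQ and for Bach1, Sirt1 and Hif1a with NAC, in 3 for Nfkb1 and Ppargc1b with NAC, and in 1 for Trp53. Among other settings, limma lost both calls of Ppargc1b and DESeq2 that with NAC, DESeq2 and the labelled platform as covariate each lost Sirt1 and Nfkb1, and edgeR lost Trp53 with that covariate or only the 4 libraries compared.

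Genes known to be induced by NRF2, of which Srxn1 and Txnrd1 are also in the recycling list and Gclc, Gclm and Slc7a11 in the glutathione list, are a wider readout of that regulator. Of 20 tested, PQ gave 11 higher and 1 lower, Tkt, beside 9.76% of all genes higher and 9.45% lower, with a median of 0.34. NAC gave 0 higher and 8 lower, beside 9.01% of all genes higher and 9.64% lower, with a median of -0.21. The Tkt call (-0.29, edgeR adjusted p = 0.031) was lost without control library 2 (-0.25, 0.11), PQ library 1 (-0.29, 0.18) or PQ library 2 (-0.30, 0.13), and with limma or the labelled platform as covariate. Leaving out each library gave 6 to 11 higher with PQ and 4 to 8 lower with NAC. The 0 came from edgeR, with 3 at an unadjusted p under 0.05, 0 with DESeq2 and 1 with limma. Hmox1, the heme oxygenase gene, rose with PQ by 1.02 ± 0.11 (edgeR adjusted p = 7.3e-06), and the ferritin gene Fth1 by 0.79 ± 0.085 (edgeR adjusted p = 5.9e-06). Of the enzymes, Prdx1 at 0.29 lay close to the PQ median of that list, Sod3 lay above it, and the other 8 lay below it. For PQ against NAC the list had 16 higher and 2 lower, beside 16.0% of all genes higher and 15.7% lower. Its median was 0.58, and Prdx1 had 0.20 there. The lower genes, Blvrb and Cbr3, were named after their values were seen. The Blvrb call (-0.51, edgeR adjusted p = 0.0077) was lost without PQ library 1 (-0.39, 0.13) or NAC library 1 (-0.50, 0.052), and with the labelled platform as covariate (-0.44, 0.05). That of Cbr3 (-0.46, edgeR adjusted p = 0.0091) was lost without PQ library 1 (-0.43, 0.076) or NAC library 2 (-0.35, 0.12). The higher calls of this list by edgeR numbered 12 to 16 with each library left out. The other lists in that contrast also stand beside 16.0% of all genes higher and 15.7% lower. The recycling list had 4 higher and 3 lower (median 0.13). The glutathione list had 4 higher (median 0.36) and copper and manganese delivery 3 higher (median 0.26). The sources of superoxide and peroxide had 3 higher and 1 lower (median 0.004), the peroxisome list a median of -0.016, the endoplasmic reticulum partners 1 higher and 1 lower (median -0.003) and the regulators 3 higher, Nfe2l2, Foxo3 and Hif1a, and 4 lower (median -0.017). Small edgeR counts moved when a library was left out. The sources of superoxide and peroxide had 2 higher and 0 lower without NAC library 1, and 3 and 0 without PQ library 1. The glutathione list had 2 higher without NAC library 2. Copper and manganese delivery had 1 higher without NAC library 2 or PQ library 1. The endoplasmic reticulum partners had 0 higher without NAC library 1 or PQ library 2. The regulators had 1 higher and 2 lower without NAC library 1, 2 and 2 without PQ library 1, and 2 and 1 without PQ library 2.

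**Figure D5:**
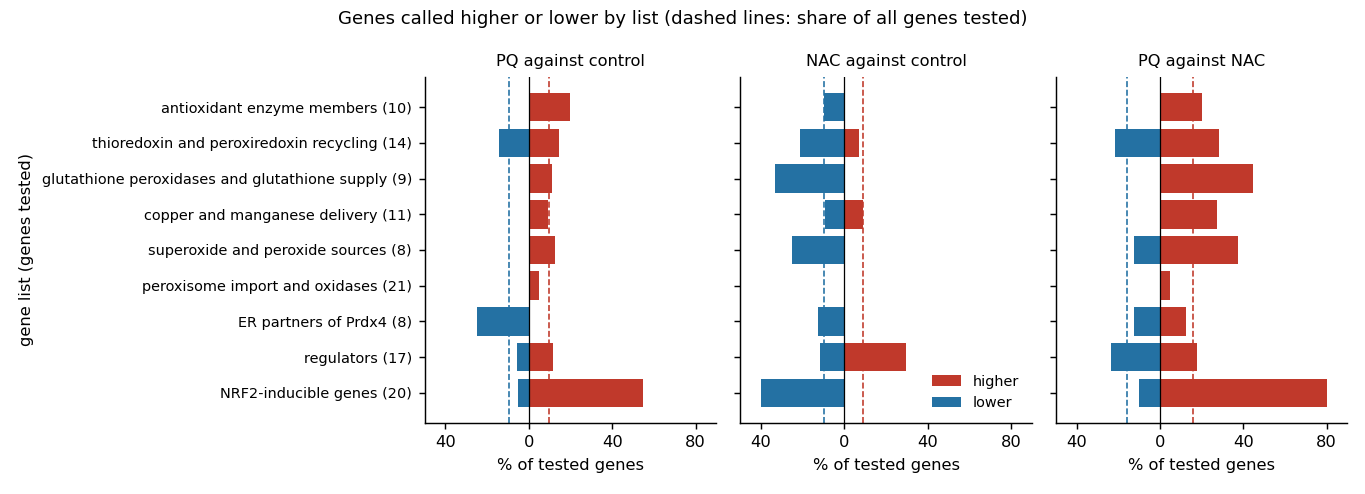
Share of tested genes called higher (right) or lower (left) by edgeR in each list, in percent, for PQ against control, NAC against control and PQ against NAC, with dashed lines at the share of all genes. The bar of the NRF2-inducible genes stands for 11 of 20 higher with PQ and 8 of 20 lower with NAC, and that of the 10 enzymes for 2 higher and 1 lower.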

How the data were processed

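RNA-seq tables of 6 libraries of NSPCs were used. For each gene the authors deposited an expected count, which is an estimated and not always whole number of reads. The authors also deposited FPKM per gene, scaled by length and library total, and a transcript length. The submitters' processing notes name TopHat2 2.0.11 and Cufflinks 2.1.1 with mm9 for the 2 libraries labelled Illumina, and HISAT2 2.0.4, Bowtie2 2.2.5 and RSEM with mm10 for the other 4, yet all 6 tables have the same RSEM-type columns. Genes absent from a table were given 0. Symbols, overlaps and promoters came from RefSeq tables for GRCm38.p6, and 99.7% of gene numbers matched.

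Expected counts were rounded. edgeR 4.0.16 in R 4.3.3 (TMM, glmQLFit, glmQLFTest, no covariates, all 6 libraries sharing the spread) was run on genes whose FPKM averaged 1 or more. P-values were adjusted over all of them by Benjamini-Hochberg and called under 0.05. Standard errors came from the log2 fold change and F. Alternatives were DESeq2 1.42.0 size factors, its Wald test, limma 3.58.1 on log2(FPKM + 1) and log2(FPKM + 0.1), no filter, the labelled platform as covariate, only the 4 libraries compared, and each library left out. The tests were tried on simulated counts first. Named genes were all 10 enzymes, direct partners, up to 3 genes of each list with the smallest adjusted p in a comparison, and the 3 genes most like each called enzyme. The enzymes and lists were chosen with earlier results of these data known. A result of the peroxisome list is not reported here.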

Additional observations from a re-analysis of the deposited data

How the results depend on the processing

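With 2 libraries per group, a change as small as that of Prdx1 lies near what these tests can call, and a lone library left in a group is assumed to vary like the other groups. Of the log2 fold changes of the 10 enzymes, 198 kept direction and side of the threshold under the other settings, 6 lost their call, 2 gained one and 4 changed sign. With each library left out, 155 kept both, 14 lost a call and 11 changed sign. Every change of sign was in a value with no call, and the cause was not tested.

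For PQ against control, Sod2 became 0.012 with limma under either pseudocount. With each library left out, Prdx6 ran from -0.07 (without control library 1) to 0.174, Prdx3 from -0.134 to 0.001 (without PQ library 2) and Prdx5 from -0.047 (without PQ library 2) to 0.091. For NAC against control, Prdx6 ran from -0.076 (without control library 1) to 0.168, Sod1 from -0.043 (without control library 2; -0.015 without NAC library 1) to 0.079, and Prdx4 from -0.19 to 0.059 (without NAC library 1). For PQ against NAC, Prdx6 became -0.014 with limma under either pseudocount and ran from -0.033 (without PQ library 1; -0.02 without NAC library 2) to 0.045, Prdx3 from -0.013 (without PQ library 1) to 0.121, and Prdx4 from -0.236 to 0.013 (without NAC library 2).

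For NAC against control, 0 enzymes were called by DESeq2, by edgeR with the platform as covariate, or by edgeR on only the 4 libraries compared, where an unadjusted p under 0.05 was reached by 2 with DESeq2 and 2 with edgeR on all libraries. limma called 1, Sod3 in place of Prdx5. For PQ against NAC, DESeq2 called 1. The cause was not tested. With each library left out, enzymes called ran from 1 to 2 for PQ against control, 0 to 1 for NAC against control and 0 to 2 for PQ against NAC. Genes called ran from 866 to 2206, 1286 to 2126 and 2343 to 4207 in the same order, beside 2250, 2186 and 3708 with all libraries. Without the filter, the median of the superoxide and peroxide sources, then of 16 genes, was 0.104 for PQ against control, -0.092 for NAC against control and 0.224 for PQ against NAC. No paired analysis was possible because the labels give no shared replicate numbers, other than by labelled platform for PQ against control, where edgeR with platform as covariate gave Sod3 0.91 (adjusted p = 0.00032) and Prdx1 0.29 (adjusted p = 0.048).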
